A study of Homo sapiens with 30 samples.

Results

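The comparison described here is that of the RNA in the granule fraction with the RNA in the cytosol of cells that express the disease form of TIA1 and were not given arsenite. It was chosen by the sample labels alone: 3 granule-fraction libraries and 3 cytosol libraries of the tetracycline-treated WDM line, 6 of the 30 libraries of the series. WDM stands for Welander distal myopathy, an inherited muscle disease, and the line is a Flp-In T-REx derivative of HEK293, a human embryonic kidney line, that carries a GFP-tagged TIA1a transgene with the mutation of that disease. All 6 libraries come from cells given tetracycline, the inducer of the transgene, and none from cells given arsenite. The other groups used here are their counterparts from the WT line, which carries the normal TIA1a transgene (3 granule-fraction and 3 cytosol libraries with tetracycline), and the same WDM fractions after 0.5 mM sodium arsenite for 60 minutes (3 and 3). The WT fractions with tetracycline and the same arsenite treatment entered the fit only, where all 24 libraries with tetracycline share an estimate of the spread.

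The series as a whole holds both lines, with and without tetracycline and arsenite. The granule fraction is the material that pelleted in a high-speed spin of cleared lysate and was then captured through the GFP tag. The design text describes this preparation for arsenite-treated cells, so that the name for the pull-down from unstressed cells is taken from the labels. The transgene is expressed beside the cells' own TIA1, and whether each line is a single clone is not stated. Libraries of a pull-down from cells without the GFP tag were not analysed here, so RNA bound through TIA1 and RNA bound to the beads or carried in the pellet cannot be told apart. The labels number the replicates but do not say that they are separate cultures, and p-values then measure only the spread between these samples.

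TIA1 is an RNA-binding protein that prefers U-rich RNA, regulates splicing and translation, and helps to assemble stress granules, cytoplasmic bodies in which untranslated mRNAs gather after stress. Long and poorly translated mRNAs are known to be favoured in stress granules, and short, well translated mRNAs, such as those of ribosomal proteins, to be under-represented. Welander distal myopathy weakens the distal muscles of hands and feet, and HEK293 cells serve here as a model of the mutant protein, not of muscle.

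Depth was 7971585 to 18884843 counts in the cytosol libraries and 10085902 to 16335526 in the granule libraries. Levels are given as CPM, the usual scaling of a count by the library's total, and a fold change as log2 of granule fraction over cytosol, so that 1 is a doubling. CPM is relative: an amount of RNA per cell was not measured, and fewer copies of a transcript and more of all the others cannot be told apart. A principal component with 86.9% of the variance set the fractions on opposite sides. Granule replicate 1 stood apart from replicates 2 and 3, at 113 on that component against 71.9 and 75.7, and its counts differed from theirs by 40.7 and 33.3 chi-square units per degree of freedom, against 3.38 between replicates 2 and 3. Results that rest on this library are given with and without it. Cytosol replicate 2 lay farthest out on the other side, at -110 against -73.2 and -78.3.

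Of 18141 genes tested with edgeR's quasi-likelihood test, 6496 were higher in the granule fraction (35.8%) and 6403 lower (35.3%) at a Benjamini-Hochberg adjusted p under 0.05. The change was 1 or more on the log2 scale in 4398 and 3849 of these. Without granule replicate 1, 6134 were higher and 5994 lower. Shares of this size are the background against which the counts in each gene list below are to be read, beside a median log2 fold change of 0.02 over all genes. The lists and their members were chosen with earlier results of these data known. Their counts and medians therefore describe the lists and do not test them. TIA1 itself (ENSG00000116001, chromosome 2, 70209444 to 70248660) had 0 counts in the 6 libraries and 3 in all 30, so neither the transgene nor its pull-down could be checked in this table.

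The table's way of counting bears on every value below. Of 395 protein-coding genes nested in another gene of their strand (95% or more of the exon length within its span, under 10% within its exons), 304 (77.0%) had no count in 24 libraries, and TIA1 is such a gene, lying inside C2orf42. Of 892 genes placed in the same way inside a gene on the opposite strand, 137 (15.4%) had none, and of 9149 genes with no other gene on either strand, 620 (6.8%). The mean level over the 24 libraries was under 0.4 CPM in 91.6%, 59.6% and 33.6% of these sets, in the same order. Counting over whole gene spans by strand, with reads shared by 2 genes left out, would empty genes nested on the same strand. Whether the reads were counted so was not tested. The setting is not given in the sources used here. Under such counting, reads from introns add to a gene's count, and mature and unspliced RNA of a gene cannot be told apart.

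The messages of giant cytoskeletal linker proteins had the highest median of the lists of nuclear genes. All 18 listed genes were tested and called higher (18 of 18), with a median log2 fold change of 2.01 and a range of 0.61 to 3.88. In 17 of them every granule library lay above every cytosol library. The share of all genes that separate in this way is not given here, so this count only describes the list. Together they took 8109, 5740 and 8025 CPM in the cytosol libraries and 27199, 57179 and 49083 CPM in the granule libraries, replicate 1 being the lowest of the granule libraries and still above all cytosol libraries.

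MACF1, a giant spectraplakin that links actin to microtubules (ENSG00000127603, chromosome 1, 39081316 to 39487177, plus strand), had 844, 552 and 891 CPM in cytosol and 5578, 11763 and 9877 CPM in the granule fraction. The granule values did not overlap the cytosol values and the fold change was 3.59 (SE 0.295, edgeR adjusted p 1.76e-11), or 12.0-fold. DST, the other spectraplakin (chromosome 6, 56457987 to 56954830), had 704, 478 and 754 CPM against 3737, 7346 and 7077 CPM. Its fold change was 3.24 (SE 0.246, edgeR adjusted p 4.61e-12).

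The spectrins form the mesh under the cell membrane, and the messages of an alpha and a beta chain rose by like folds. SPTBN1, the beta chain (chromosome 2, 54456317 to 54671446), had 550, 455 and 632 CPM in cytosol and 3996, 8539 and 7006 CPM in the granule fraction (log2 3.59, SE 0.272, edgeR adjusted p 4.40e-12). SPTAN1, the alpha chain (chromosome 9, 128552558 to 128633662), had 360, 250 and 386 CPM and 2558, 5249 and 4106 CPM (log2 3.59, SE 0.302, edgeR adjusted p 4.84e-11). In both genes granule replicate 1 held the lowest granule value.

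The plakins and nesprins that tie filaments to junctions and to the nuclear envelope followed. PLEC, which encodes plectin, had 74.1, 42.3 and 55.3 CPM in cytosol and 594, 1092 and 832 CPM in the granule fraction, the largest fold change of the list at 3.88 (SE 0.336, edgeR adjusted p 4.24e-10). SYNE2, nesprin-2 of the nuclear envelope (chromosome 14, 63761899 to 64226433), had 396, 264 and 382 CPM against 1841, 4692 and 4258 CPM (log2 3.39). DSP, the desmosomal protein desmoplakin, rose by 2.65, and EPPK1, epiplakin, which is outside the list, by 3.53 (edgeR adjusted p 1.26e-09 and 2.16e-07).

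MYH9, a non-muscle myosin heavy chain, had 427, 347 and 460 CPM in cytosol and 468, 1188 and 1018 CPM in the granule fraction, so that replicate 1 barely exceeded the highest cytosol value (log2 1.13, edgeR adjusted p 0.000242). A pair of actin regulators outside the list, picked after their values were seen, showed the same split of the replicates: IQGAP1 had 622 CPM in granule replicate 1 and 2090 and 1690 in the others, and DBN1 158 against 467 and 423 CPM.

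Over the 18 genes the median in granule replicate 1 was lower by 0.94 (log2) than in the mean of replicates 2 and 3. Without replicate 1 all 18 were still called higher, with a median of 2.15.

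**Figure D1:**
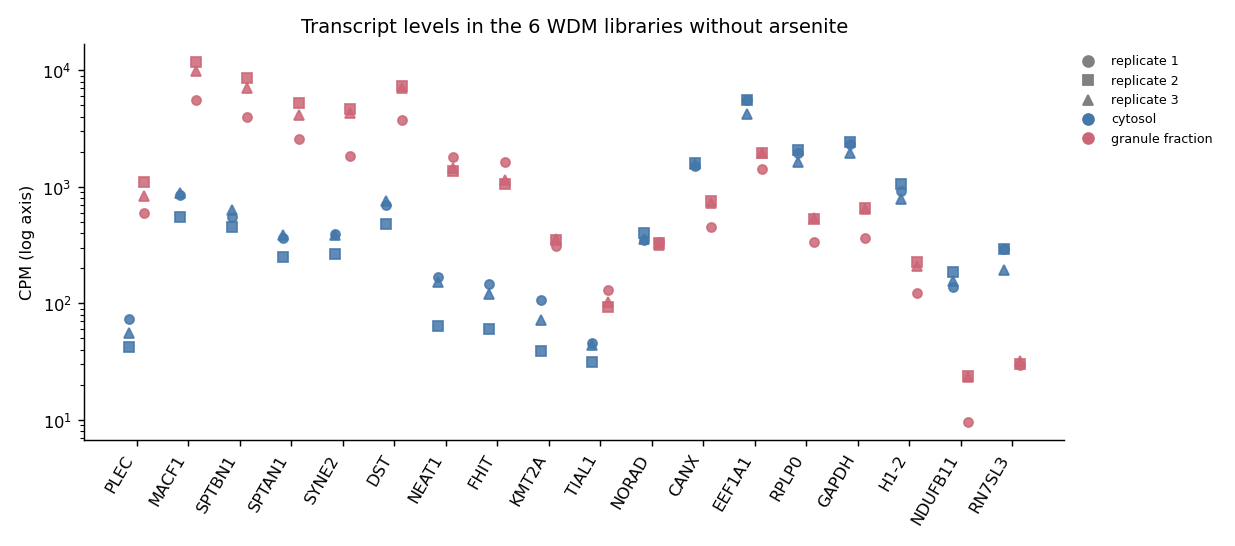
Level in each of the 6 libraries (CPM, log axis) of 18 transcripts named in the text, cytosol in blue and granule fraction in red, with a marker shape per replicate number. Granule and cytosol values separate for the cytoskeletal, NEAT1 and FHIT transcripts (higher) and for the EEF1A1, RPLP0, GAPDH, H1-2, NDUFB11 and RN7SL3 transcripts (lower), and granule replicate 1 (circles) lies below replicates 2 and 3 from PLEC to DST and from CANX to NDUFB11.

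Most chromatin regulators were higher as well. Of 18 histone methyltransferase genes, 17 were called higher and 1 lower, with a median of 1.17. Of 29 tested genes of chromatin remodellers and coactivators, 24 were higher, 1 was lower and 4 were not called, with a median of 1.12. For the methyltransferases the medians of granule replicates 1, 2 and 3 over the cytosol mean were 1.25, 1.10 and 1.05.

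KMT2A, the founding member of a family of histone H3 methyltransferases (chromosome 11, 118436490 to 118526832), had 107, 39.2 and 71.7 CPM in cytosol and 311, 348 and 358 CPM in the granule fraction (log2 2.23, SE 0.356, edgeR adjusted p 9.45e-06). Of its exon length 18.3% is shared with another gene on its strand. KMT2D, of the same family, had 115, 38.6 and 70.9 CPM against 288, 258 and 252 CPM (log2 1.82, edgeR adjusted p 0.000757). In both genes the spread among the cytosol libraries was wide and the groups did not overlap. ARID1B, a subunit of the SWI/SNF remodelling complex spanning 434760 bases, had 131, 55.6 and 111 CPM and 547, 426 and 468 CPM (log2 2.27). EP400, a remodeller that exchanges histone variants, rose by 1.63. EHMT2, a methyltransferase with a span of 17929 bases, was the member that fell, from 75.4, 84.4 and 76.9 CPM to 50.0, 57.6 and 57.7 CPM (log2 -0.52, edgeR adjusted p 0.00229).

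Other very large proteins followed. All 8 giant ubiquitin ligases were called higher, with a median of 1.26 and a range of 0.97 to 1.74, a result lost when trends with transcript length and gene span were removed, as given below. MYCBP2, a ligase of neuronal growth, had 285, 165 and 256 CPM in cytosol and 705, 815 and 831 CPM in the granule fraction, and HUWE1 1020, 507 and 852 against 1343, 1692 and 1623 CPM. The 5 kinases of the PI3K-like family, which sense DNA damage, nutrients and faulty mRNAs, were all called higher with a smaller median of 0.79. SMG1, the kinase of nonsense-mediated decay, led with 291, 134 and 235 CPM against 573, 608 and 584 CPM (log2 1.42). PRKDC, of DNA repair, had 3059, 1805 and 2633 CPM against 3115, 5204 and 4593 CPM (log2 0.79), and ATR, of the replication checkpoint, differed by 0.54.

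The genes of centrosomal CEP proteins moved both ways. Of 34 tested, 20 were called higher, 8 lower and 6 neither, with a median of 0.56. CEP128, with a span of 482535 bases, had 59.6, 34.6 and 49.9 CPM in cytosol and 299, 209 and 226 CPM in the granule fraction (log2 2.34), and CEP350 (160103 bases) rose by 2.11. CEP55, of the final step of cell division (32481 bases), fell from 109, 129 and 113 CPM to 42.1, 44.4 and 46.2 CPM (log2 -1.41), and CEP20 (22907 bases) by -1.94.

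Long RNA that does not code for protein took a larger share of the granule fraction. Long noncoding RNAs held 1.72%, 1.47% and 1.67% of counts in cytosol and 5.15%, 3.56% and 3.77% in the granule fraction, a difference of 2.54 percentage points between the means. Protein-coding genes held 96.8%, 97.1% and 97.0% in cytosol and 93.2%, 94.9% and 94.5% in the granule fraction. Neither pair of groups overlapped (two-sided exact permutation test, p = 0.1 for each, the smallest that 3 against 3 can give). Of 3313 tested long noncoding RNAs, 1592 (48.1%) were called higher and 593 (17.9%) lower, with a median of 0.83, against 32.2% and 40.0% of 13571 protein-coding genes and a median of -0.11.

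Of 12 tested RNAs listed as nuclear, 9 were called higher and 1 lower, with a median of 1.35. NEAT1, the scaffold RNA of nuclear paraspeckles (chromosome 11, 65422774 to 65445540), had 168, 63.8 and 154 CPM in cytosol and 1816, 1377 and 1440 CPM in the granule fraction (log2 3.58, SE 0.345, edgeR adjusted p 2.06e-09). KCNQ1OT1, an imprinted antisense RNA that stays on chromatin, had 9.78, 7.03 and 10.0 CPM against 101, 68.1 and 68.7 CPM (log2 3.13). Both were at their highest in granule replicate 1.

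MALAT1, of nuclear speckles, rose less, from 472, 258 and 393 CPM to 992, 799 and 852 CPM (log2 1.23, edgeR adjusted p 9.91e-05), and TTN-AS1 by 2.68. Exons of other genes lie opposite to 83.7% of the exon length of MALAT1 and 54.9% of that of TTN-AS1. HOTAIRM1, of the HOXA cluster, was the member that fell, from 19.8, 23.1 and 23.9 CPM to 9.32, 9.22 and 9.24 CPM (log2 -1.27). Lists of nuclear RNAs and long genes thus rose side by side, and what part nuclear RNA in the pellet has in the rise of the other lists was not tested.

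Among genes of at least 5 CPM in the higher fraction, most of the largest fold changes belonged to little expressed noncoding RNAs. MIR3648-2, inside the ribosomal RNA repeat and with near-identical copies, had 0.753, 0.555 and 0.530 CPM in cytosol and 34.4, 6.85 and 7.28 CPM in the granule fraction, so that replicate 1 alone was far above the others (log2 4.69, SE 0.644, edgeR adjusted p 1.37e-06). Without granule replicate 1 the fold change of MIR3648-2 was 3.62 (edgeR adjusted p 1.18e-07). LINC02112 had 1.13, 0.185 and 0.688 CPM against 11.6, 9.55 and 10.6 CPM (log2 4.03). C1QTNF7-AS1 had 1.88, 0.0925 and 1.11 CPM against 23.1, 11.8 and 12.2 CPM (log2 3.96). In these libraries 3 counts correspond to 0.159 to 0.376 CPM, a level that the lowest cytosol values of LINC02112 and C1QTNF7-AS1 do not reach. The noncoding LINC01505, LINC02284 and KCNMB2-AS1 had fold changes of 3.72, 3.65 and 3.61 over spans of 747566, 116153 and 410848 bases. AGBL4, a protein-coding gene of 1491101 bases, had 3.64, and PLEC, at 3.88, stood among them. LINC02456 had a fold change of 3.67, and of 4.46 without cytosol replicate 3.

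Among protein-coding genes of at least 20 CPM, genes of very long span stood beside the cytoskeletal ones. FHIT, a gene across a common fragile site (chromosome 3, 59747277 to 61251459, 1504183 bases), had 146, 60.3 and 120 CPM in cytosol and 1622, 1054 and 1148 CPM in the granule fraction (log2 3.54, SE 0.319, edgeR adjusted p 6.31e-10). DAB1, a reelin adaptor of neurons (1551957 bases), had 17.1, 6.56 and 15.0 CPM against 170, 118 and 146 CPM (log2 3.48), and LRMDA (1128545 bases) 40.4, 17.4 and 32.6 against 422, 279 and 301 CPM (log2 3.46). In all 3 genes replicate 1 was the highest granule library, the reverse of the order in the cytoskeletal genes.

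Transcripts of the mitochondrial genome rose in granule replicates 2 and 3 and not in replicate 1. Their summed level was 1195, 1192 and 1306 CPM in cytosol and 1162, 3341 and 4125 CPM in the granule fraction. Of 15 genes, 14 were called higher and 0 lower, with a median of 2.47, yet in only 3 of them did every granule library exceed every cytosol library. The median fold change over the cytosol mean was -0.16 in replicate 1, 2.68 in replicate 2 and 3.16 in replicate 3.

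MT-CO1, a subunit of cytochrome oxidase, had 690, 607 and 697 CPM in cytosol and 788, 1656 and 1945 CPM in the granule fraction (log2 1.16, SE 0.316, edgeR adjusted p 0.00229). MT-ND5, a subunit of complex I, had 14.0, 13.4 and 24.3 CPM against 37.9, 199.8 and 273 CPM (log2 3.32, SE 0.675, edgeR adjusted p 0.000319). MT-CO3, another oxidase subunit, had 351, 444 and 405 CPM against 211, 620 and 682 CPM and was not called (log2 0.36, edgeR adjusted p 0.394). Leaving out replicate 1 gave 14 genes higher with a median of 2.97, and leaving out replicate 3 gave 9 with a median of 1.86. As a share of all counts the mitochondrial genome held 0.121%, 0.120% and 0.132% in cytosol and 0.119%, 0.341% and 0.420% in the granule fraction (exact permutation test, two-sided, p = 0.4).

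**Figure D2:**
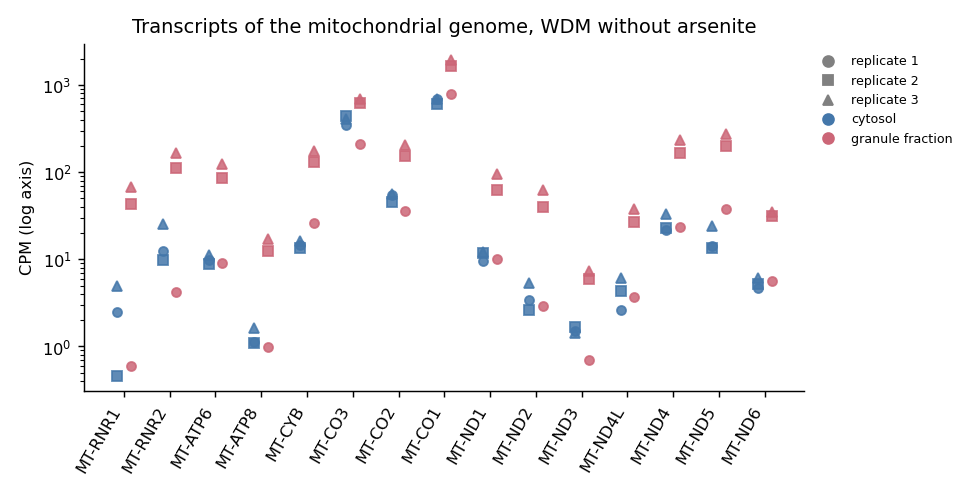
Level of each of 15 transcripts of the mitochondrial genome (CPM, log axis) in the 3 cytosol libraries (blue) and the 3 granule libraries (red), with a marker shape per replicate number. Granule replicates 2 and 3 (squares and triangles) lie above cytosol, while replicate 1 (circles) lies near or below it for most transcripts, as the replicate medians of -0.16, 2.68 and 3.16 state.

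The messages of the translation machinery were depleted. Of 81 tested ribosomal protein genes, 0 were called higher and 79 lower, with a median of -2.18, or 4.53-fold lower. Their summed level fell from 56030, 60681 and 47743 CPM in cytosol to 9561, 14573 and 14857 CPM in the granule fraction, replicate 1 being lowest. The 15 tested genes of elongation factors and other messages of the TOP class, whose translation is set by a pyrimidine tract at their start, were all called lower, with a median of -1.54. The tract is shown for 4 of these messages, and the start of 3 raised cytoskeletal genes is shown beside it.

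Each window runs 5′ to 3′ from 10 bases before the start annotated by RefSeq to 20 bases from it (GRCh38.p14), with capitals for the unbroken run of C or T that covers the start. The windows are at chr6:73521013-73521042 (minus strand), chr19:3985444-3985473 (minus), chr12:120201092-120201121 (minus), chr5:181243887-181243916 (minus), chr2:54456317-54456346 (plus), chr9:128552577-128552606 (plus) and chr1:39084157-39084186 (plus), in the order given.
EEF1A1: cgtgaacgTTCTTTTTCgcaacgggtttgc
EEF2: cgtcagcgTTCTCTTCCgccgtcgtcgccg
RPLP0: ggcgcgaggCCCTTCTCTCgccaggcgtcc
RACK1: gCTTTTCTCTCTCTCTTTCactgcaaggcg
SPTBN1: ggattcctccagtccctccctcggccgcct
SPTAN1: gcgcgtcgccgccactacccgctgcggagt
MACF1: tctccttcagatcacttctccctgggctcc
The runs are 9, 9, 10 and 18 bases long in the 4 translation messages and 0 in the cytoskeletal ones, whose start base is not a pyrimidine.

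EEF1A1, the factor that brings aminoacyl-tRNA to the ribosome (chromosome 6, 73489308 to 73525587), had 5574, 5590 and 4171 CPM in cytosol and 1418, 1937 and 1931 CPM in the granule fraction (log2 -1.54, SE 0.196, edgeR adjusted p 5.81e-08). EEF2, the translocase, had 2856, 2980 and 2743 CPM against 1059, 1614 and 1631 CPM (log2 -0.99). RPLP0, of the ribosomal stalk, had 1943, 2048 and 1645 CPM against 337, 530 and 544 CPM (log2 -1.99). No granule library reached a cytosol value in these genes. RACK1, a scaffold on the small subunit, chosen here for its long run, had 2187, 2275 and 1840 CPM against 429, 652 and 641 CPM (log2 -1.87).

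The extent of the fall differed within the machinery. RPS21, a small-subunit protein, fell from 181, 223 and 161 CPM to 14.1, 28.2 and 30.5 CPM (log2 -2.93, edgeR adjusted p 6.03e-11), and TPT1, a TOP message of growth control, by -2.67. RPL4 had 2818, 3008 and 2344 CPM against 591, 891 and 893 CPM (log2 -1.78), and RPL3 fell less, by -1.27 (edgeR adjusted p 7.71e-08). Many of these genes have processed pseudogenes, and reads can be split between the copies.

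A run of at least 6 C or T over the annotated start, read on the gene's strand, was found in 1073 of 10748 tested protein-coding genes with a RefSeq window (10.0%), and in 2602 of all 35116 windows (7.41%). It was present in 48 of 64 matched ribosomal protein genes and in 11 of 11 of the TOP list. Ribosomal protein genes with and without the run had medians of -2.19 and -2.23. Outside both lists, genes with the run had a median of -0.18 and genes without it -0.11. Within gene spans of under 10 kb these medians were -1.13 and -1.19, and within 10 to 30 kb they were -0.81 and -0.61.

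Initiation factors fell with exceptions. Of 29 tested, 24 were called lower, 2 higher and 3 neither, with a median of -0.99. EIF3I, a subunit of the eIF3 complex, had 450, 561 and 455 CPM in cytosol and 59.5, 105 and 107 CPM in the granule fraction (log2 -2.42), and EIF2S3, the gamma subunit of eIF2, fell by -1.27. EIF4G3, a scaffold of the cap complex from a gene of 370597 bases, was higher, with 310, 185 and 258 CPM against 876, 591 and 619 CPM (log2 1.45). EIF4G1, the main scaffold, had 715, 665 and 628 CPM against 670, 980 and 949 CPM and was not called (edgeR adjusted p 0.0857). Of 20 cytosolic tRNA synthetases 15 were called lower and 0 higher, with a median of -0.88. KARS1 fell by -1.56, whereas LARS1 had 594, 600 and 583 CPM against 567, 654 and 636 CPM (log2 0.06, edgeR adjusted p 0.698).

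Energy metabolism followed the same course. Of 64 tested nuclear genes of the respiratory chain 62 were called lower and 0 higher, with a median of -2.35. The list of mitochondrial genome transcripts had the opposite sign in granule replicates 2 and 3 and not in replicate 1 (median -0.16). NDUFB11, of complex I, had 139, 187 and 155 CPM in cytosol and 9.62, 24.0 and 23.4 CPM in the granule fraction (log2 -3.04, SE 0.221, edgeR adjusted p 4.42e-12). ATP5F1B, the catalytic subunit of ATP synthase, had 1134, 1290 and 1082 CPM against 260, 467 and 431 CPM (log2 -1.59), and ATP5IF1, the inhibitor of that enzyme, fell by -3.01.

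Of 15 glycolytic enzymes 13 were called lower and 1 higher, with a median of -0.78. GAPDH had 2331, 2404 and 1942 CPM against 361, 659 and 643 CPM (3.99-fold lower), and ENO1, enolase, 2867, 3125 and 2410 against 727, 1273 and 1220 CPM (log2 -1.38). LDHB was the member called higher, at 0.627, 0.185 and 0.265 CPM against 1.69, 1.65 and 1.78 CPM. Of its exon length 88.3% lies within the span of another gene on its strand, and its value is uncertain. Of 32 proteasome subunits 30 were called lower and 1 higher, with a median of -1.53. The member called higher was PSMA1 (log2 2.26), of whose exon length 81.0% lies within another gene's span, so that its value is uncertain too. PSMB6, a catalytic core subunit, had 139, 176 and 147 CPM against 16.0, 32.6 and 32.2 CPM (log2 -2.50).

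Messages of the chaperones and the translocon of the endoplasmic reticulum fell too. Of 24 such genes 22 were called lower and 0 higher, with a median of -1.56. SEC61G, a small subunit of the translocon, had 57.5, 62.0 and 50.4 CPM in cytosol and 7.34, 8.89 and 7.71 CPM in the granule fraction (log2 -2.82, edgeR adjusted p 6.54e-13). CANX, the chaperone calnexin, had 1519, 1609 and 1553 CPM against 451, 750 and 720 CPM (log2 -1.28), and HSP90B1 fell by -1.34.

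Replication-dependent histone messages, which end in a stem-loop and not in a poly(A) tail, had the lowest median of all lists, -2.44, with 44 of 47 called lower and 0 higher. H1-2, a linker histone, had 921, 1062 and 787 CPM in cytosol and 122, 228 and 210 CPM in the granule fraction (log2 -2.30, edgeR adjusted p 2.87e-11). H2BC17 had 70.4, 91.1 and 72.9 CPM against 5.45, 11.6 and 12.5 CPM (log2 -2.95). Histone genes have near-identical copies, and their single values are uncertain. The list fell most in replicate 1, with medians of -3.0, -2.16 and -2.19 in granule replicates 1, 2 and 3.

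Among protein-coding genes with at least 20 CPM in the cytosol and no overlap of the groups, the largest falls were those of SMIM30 (a small membrane protein, log2 -3.20), ROMO1 (a mitochondrial redox modulator, -3.17), UBL5 (a ubiquitin-like splicing factor, -3.09), PTRHD1 (-3.07), OST4 (a subunit of the glycosylation complex, -3.06), NDUFB11, NOP10 (of box H/ACA snoRNPs, -3.04) and TMSB10 (an actin-binding thymosin, -3.02). ROMO1 had 68.7, 86.5 and 63.8 CPM in cytosol and 5.25, 8.36 and 10.2 CPM in the granule fraction. TMSB10 had 201, 236 and 156 CPM against 14.7, 27.1 and 30.2 CPM. Among genes of at least 5 CPM, TMSB4X fell by -3.23, IFI27L2 by -3.38 and KRT10 by -3.21, and the processed pseudogenes RPL21P28, RPL21P75 and SNRPGP2 by -3.82, -3.67 and -3.46. Reads of those pseudogenes can stem from their parent genes.

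**Figure D3:**
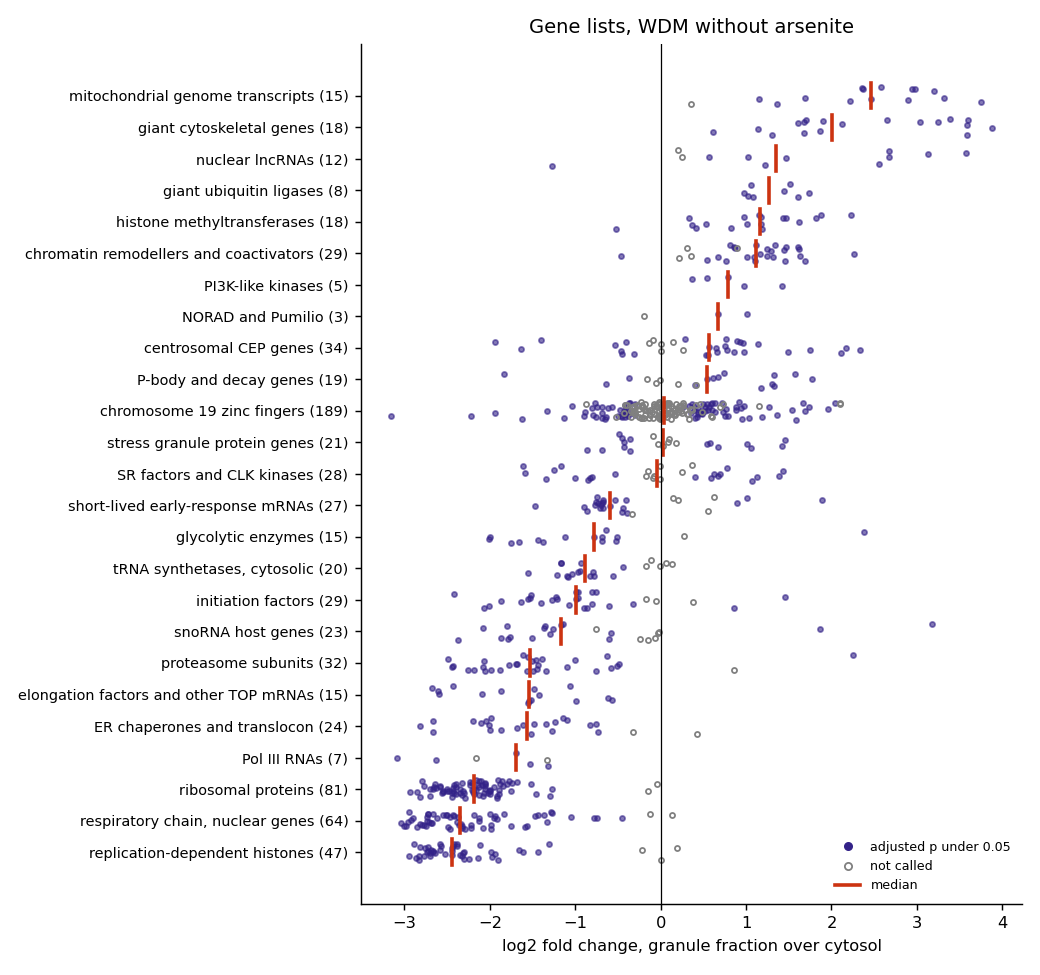
Log2 fold change (granule fraction over cytosol, x axis) of each tested member of 25 gene lists, with the number tested in brackets, filled points for an edgeR adjusted p under 0.05, open points for the others and a red bar for the median. Medians run from -2.44 for replication-dependent histones to 2.47 for transcripts of the mitochondrial genome, and the stress granule protein genes, SR factors and chromosome 19 zinc fingers lie on both sides of 0.

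RNAs made by RNA polymerase III were lower in the granule fraction. Of 7 tested, 5 were called lower and 0 higher, with a median of -1.70. The 7SL RNA is the backbone of the signal recognition particle, and RN7SL1 (chromosome 14, 49586580 to 49586878, plus strand) and RN7SL3 (chromosome 14, 49853616 to 49853914, minus strand, GRCh38) are copies of its gene. RN7SL3 had 293, 291 and 192 CPM in cytosol and 29.3, 30.4 and 32.1 CPM in the granule fraction (log2 -3.08, SE 0.177, edgeR adjusted p 2.13e-13). RN7SL1 had 1302, 1065 and 609 CPM against 474, 371 and 367 CPM (log2 -1.32, SE 0.277, edgeR adjusted p 0.000158). Cytosol replicate 3 was the lowest cytosol library for both. The copies are near-identical, so the fall is that of 7SL RNA and its division between them is uncertain.

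Host genes of small nucleolar RNAs, whose spliced transcripts are noncoding and often carry a pyrimidine start, fell in the main. Of 23 tested, 15 were called lower, 2 higher and 6 neither, with a median of -1.16. SNHG29 had 470, 527 and 479 CPM in cytosol and 198, 195 and 189 CPM in the granule fraction (log2 -1.35), and SNHG16 555, 632 and 583 against 216, 265 and 260 CPM (log2 -1.25). SNHG1, another host, had 81.8, 94.2 and 96.9 CPM against 99.3, 90.5 and 81.4 CPM (log2 -0.02, edgeR adjusted p 0.918). SNHG31, from a gene of 153395 bases, rose from 3.76, 1.48 and 4.08 CPM to 38.9, 25.0 and 23.1 CPM (log2 3.17).

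The messages of stress granule proteins themselves went both ways, at shares near those of all genes tested (35.8% higher and 35.3% lower). Of 21 tested, 7 were called higher, 8 lower and 6 neither, with a median of 0.03. TIAL1, the paralog of TIA1 (chromosome 10, 119571802 to 119597029), had 45.5, 31.2 and 43.8 CPM in cytosol and 131, 93.3 and 102 CPM in the granule fraction (log2 1.42, SE 0.173, edgeR adjusted p 2.56e-08). ATXN2, ataxin-2, had 61.1, 41.0 and 58.4 CPM against 209, 117 and 122 CPM (log2 1.46).

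Processing bodies are the other large RNA granules of the cytoplasm, where mRNA is decapped or stored. Of 19 genes of P-body and decay factors, 11 were called higher, 3 lower and 5 neither, with a median of 0.54. TNRC6B, a partner of Argonaute in miRNA silencing (290992 bases), had 159, 77.3 and 129 CPM in cytosol and 439, 401 and 416 CPM in the granule fraction (log2 1.77). LSM1, of the decapping ring (13396 bases), had 63.2, 79.5 and 69.5 CPM against 18.6, 20.8 and 20.1 CPM (log2 -1.83). CNOT1, the scaffold of the deadenylase, had 509, 298 and 409 CPM against 483, 585 and 557 CPM and was not called (edgeR adjusted p 0.0551).

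NORAD is a noncoding RNA of the cytoplasm that binds the Pumilio proteins, and it is often named among RNAs of stress granules. Without arsenite it had 348, 403 and 360 CPM in cytosol and 334, 327 and 317 CPM in the granule fraction, and it was not called (log2 -0.19, SE 0.188, edgeR adjusted p 0.361). PUM2, which encodes a Pumilio protein, had 144, 102 and 125 CPM against 280.1, 239 and 234 CPM (log2 1.01, edgeR adjusted p 2.87e-06).

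Splicing factors went both ways, at shares near those of all genes tested (35.8% higher and 35.3% lower). Of 28 genes of SR factors, their cofactors and CLK kinases, 10 were called higher, 10 lower and 8 neither (median -0.05). NKTR, a cyclophilin with an SR domain, had 68.2, 53.3 and 75.6 CPM in cytosol and 196, 161 and 178 CPM in the granule fraction (log2 1.43), and SON, a speckle protein, rose by 1.13. SRSF3, a small SR protein, fell from 526, 597 and 549 CPM to 144, 201 and 198 CPM (log2 -1.62).

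Of 27 messages of the short-lived, early-response class, 19 were called lower, 3 higher and 5 neither (median -0.59). GADD45A, of growth arrest, had 20.6, 25.4 and 24.2 CPM against 6.15, 8.76 and 10.0 CPM (log2 -1.47), and JUN 216, 204 and 214 against 105, 131 and 136 CPM (log2 -0.77). EGR1, an immediate-early transcription factor, was at 1.76, 1.66 and 1.27 CPM in cytosol and 7.04, 5.40 and 4.65 CPM in the granule fraction (log2 1.89, edgeR adjusted p 3.42e-06). Of 189 tested zinc-finger genes of chromosome 19, 48 were called higher and 40 lower, with a median of 0.04. ZNF536, from a gene of 485249 bases, rose by 1.96, and ZNF146, of 24170 bases, fell by -0.75.

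Genes listed as markers of HEK293 and epithelial cells, with VIM, NES, NEFL, NEFM and CDH2 among them, were looked at as a check of the cells. All 12 listed genes had counts and 10 were tested. Of these, 7 were called lower and 2 higher in the granule fraction, with fold changes from -2.20 to 2.03. Their summed level was 1580, 1667 and 1420 CPM in cytosol and 659.9, 861 and 848 CPM in the granule fraction. Among the members that fell, EPCAM, an epithelial adhesion protein, had 99.9, 127 and 121 CPM against 18.5, 26.5 and 30.0 CPM. KRT18 fell by -1.89 and VIM by -1.35. Of 12 markers of blood, endothelial, liver, muscle and connective tissue cells 4 had no count in the 6 libraries and 3 were tested, and the summed level of all 12 was between 8.13 and 14.4 CPM in every library.

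Fold changes rose with the size of the gene. Across 13571 protein-coding genes, which are not independent replicates, Spearman's rho of the fold change with gene span, the distance from the first to the last base of the gene, was 0.638. It was 0.481 with the length of the longest transcript, 0.502 with coding length, 0.409 with the number of exons, 0.269 with the length of the 3′ untranslated region and -0.087 with GC content. In granule replicates 1, 2 and 3 alone, rho with span was 0.662, 0.626 and 0.627.

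Of 2230 genes with a span under 10 kb, 6.0% were called higher and 73.7% lower, with a median of -1.17. Of 713 genes over 300 kb, 93.7% were called higher and 1.3% lower, with a median of 1.97. By transcript length, the 407 genes with a longest transcript under 1 kb had a median of -1.75, and the 98 genes with one over 16 kb a median of 1.56.

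At the same transcript length the fold change still went with span. Among genes with transcripts of 2 to 4 kb, the median was -0.95 for spans under 10 kb (1026 genes), -0.68 for 10 to 30 kb, -0.24 for 30 to 100 kb, 0.73 for 100 to 300 kb and 1.91 over 300 kb (113 genes). At the same span, transcript length went with the fold change in short genes: under 10 kb the median was -2.30 for transcripts under 1 kb and -0.49 for those of 4 to 8 kb. Over 300 kb it lay between 1.91 and 1.96 for transcript classes from 2 to 16 kb, and was 2.30 for those over 16 kb (34 genes). Whether counts from introns of long genes, read in the way described above, set this relation was not tested.

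**Figure D4:**
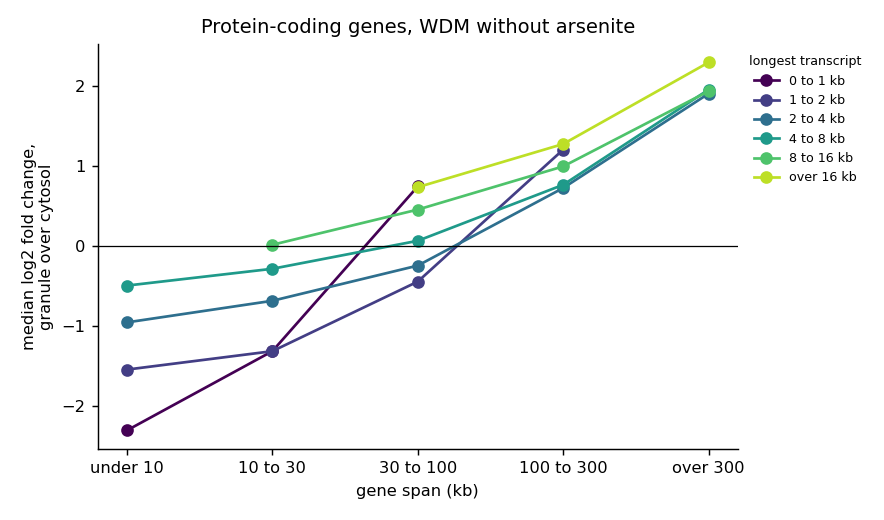
Median log2 fold change (granule fraction over cytosol, y axis) of protein-coding genes by gene span (x axis, kb), with a line for each class of longest transcript, for cells of at least 20 genes. Every line climbs with span, and the lines of 2 to 16 kb meet near 1.9 over 300 kb.

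With each library's trend with transcript length and gene span removed from the fit, an alternative chosen after seeing the data, list medians moved in either direction. The giant cytoskeletal genes kept a median of 0.89, with 13 called higher and 3 lower of 18, and the ribosomal protein genes one of -1.57, with 79 called lower. The histone methyltransferases had a median of 0.33, with 9 higher and 2 lower. The PI3K-like kinases reversed to -0.28, with 1 higher and 2 lower. The giant ubiquitin ligases lost their calls, with 0 of 8 higher, 2 lower and a median of 0.05, and with the length trend alone removed 2 were higher, with a median of 0.21. The chromatin remodellers and coactivators had a median of 0.18, with 12 higher and 5 lower, and with length alone 0.39, with 15 higher and 1 lower.

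Lists that had been split moved as well. The chromosome 19 zinc fingers had 88 higher and 16 lower with both trends removed (median 0.30), 78 and 18 with span alone and 39 and 53 with length alone. The SR factors and CLK kinases went to 14 higher and 7 lower (median 0.46), and the early-response messages to 10 higher and 2 lower (median 0.16). The centrosomal genes had 11 higher and 10 lower (median 0.20), and the P-body list 7 higher and 2 lower (median 0.11). The nuclear long noncoding RNAs had 9 higher and 1 lower (median 1.01), but 5 and 2 with length alone (median 0.35). The mitochondrial transcripts, which are short, had a median of 3.42.

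TIA1's preference for U-rich RNA was looked at through runs of 5 T (TTTTT, read on the transcript's strand, overlapping runs counted each) in the 3′ untranslated region of the canonical transcript. Across 13065 genes with at least 100 bases of it, rho of the fold change with runs per kb was 0.051. In 4 groups of like size, ordered from the fewest runs per kb to the most, the medians were -0.29, -0.04, -0.02 and -0.08. Within spans of 10 to 30 kb the medians of these groups were -0.46, -0.60, -0.69 and -0.73. Within 30 to 100 kb they were 0.13, 0.01, -0.06 and -0.05, and over 300 kb 2.00, 1.99, 2.01 and 1.87. Under 10 kb they were -1.13, -1.15, -0.97 and -1.23, and within 100 to 300 kb 0.93, 0.86, 0.80 and 0.81. In every span class the group with the most runs thus had a lower median than the group with the fewest. Runs elsewhere in the transcript, introns included, were not counted.

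Granule replicate 1 differed from the others along the same axis. Across 9453 genes whose mean reached 20 CPM in either fraction, rho of its log2 difference from replicates 2 and 3 was 0.656 with gene span and 0.24 with transcript length. Its median difference was -2.86 for mitochondrial transcripts, -0.94 for the giant cytoskeletal genes, -0.85 for histones and -0.67 for ribosomal proteins, and 0.43 for nuclear long noncoding RNAs. No label gives a batch for this library.

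Enrichment in the WDM line was then set beside that in the WT line, from separate libraries. The difference between the lines, tested as an interaction, called 1 gene of 18141 (0.00551%). An unadjusted p under 0.05 was found for 929 genes, about the share that this threshold gives when nothing differs. That gene was CALCB, which encodes a calcitonin gene-related peptide (ENSG00000175868, chromosome 11, 14904997 to 15082342, plus strand). In WDM it had 10.3, 11.6 and 12.5 CPM in cytosol and 40.2, 27.2 and 29.9 CPM in the granule fraction (log2 1.47, SE 0.177). In WT it had 8.86, 9.60 and 12.0 CPM and 3.89, 4.76 and 5.12 CPM (log2 -1.14, SE 0.198). The groups separated in opposite directions in the lines, and the interaction was 2.61 (SE 0.266, edgeR adjusted p 1.65e-06).

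COL5A2, a collagen chain, came next by p-value, with fold changes of -0.29 in WDM and 0.86 in WT (interaction -1.15, edgeR adjusted p 0.0861). DESeq2 called it as well as CALCB. SSPN, sarcospan, had -0.64 in WDM and 0.80 in WT and was not called. The list medians of the lines lay side by side: 2.01 in WDM and 2.54 in WT for the giant cytoskeletal genes, -2.18 and -2.50 for ribosomal proteins, -2.44 and -2.89 for histones, and 2.47 and 1.40 for mitochondrial transcripts. No listed gene was called by the interaction. A p that misses the threshold does not show that the lines are alike.

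Arsenite changed enrichment far more widely. The difference of WDM enrichment with and without arsenite called 1390 genes higher (7.66%) and 2996 lower (16.5%), with a median of -0.17 over all genes. With scaling by library size alone the split was 1647 and 2416, and with scaling over protein-coding genes 1825 and 2370. Without granule replicate 1 it was 1079 and 2889.

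Several lists with high enrichment without arsenite had a lower median with it. The mitochondrial transcripts had the largest fall of a list median, from 2.47 to 0.49. Of these 15, 2 were called lower by the interaction and 0 higher, beside 16.5% of all genes called lower. Without arsenite their granule replicates disagreed, with medians of -0.16, 2.68 and 3.16 over the cytosol mean. The nuclear long noncoding RNAs went from 1.35 to 0.59, with 6 of 12 called lower and 0 higher. Of the 18 giant cytoskeletal genes, 11 were called lower by the interaction and 0 higher, and the median went from 2.01 to 1.13. SYNE2 had 383, 268.5 and 325 CPM in cytosol and 610.1, 577 and 628 CPM in the granule fraction with arsenite, a fold change of 0.83 against 3.39 without (interaction -2.56, SE 0.366, edgeR adjusted p 4.80e-05). MACF1 went from 3.59 to 1.65, SPTBN1 from 3.59 to 1.48, DST from 3.24 to 1.07 and IQGAP1 from 2.27 to 0.52. In each of these genes the granule level with arsenite lay below that of every granule library without it, replicate 1 included.

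TIAL1 lost its enrichment, with 88.3, 70.3 and 63.1 CPM in cytosol and 91.7, 77.3 and 69.6 CPM in the granule fraction with arsenite (log2 0.04, interaction -1.38, edgeR adjusted p 0.000233). The genes with the smallest p-values in this direction were RN7SL3, SNHG1, CEP295, PRPF39 and ORC5. SNHG1 went from -0.02 to -2.25, CEP295 from 1.14 to -0.52, PRPF39, a splicing factor, from 0.54 to -1.16, ORC5, of the origin recognition complex, from 0.02 to -1.67. NKTR, called as well, went from 1.43 to 0.02.

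Other genes gained enrichment with arsenite. NORAD had 292, 280 and 291 CPM in cytosol and 663, 630 and 696 CPM in the granule fraction with arsenite (log2 1.14, against -0.19 without; interaction 1.33, edgeR adjusted p 0.000764). POFUT1, an enzyme that fucosylates Notch, went from -0.91 to 0.69, and PTGFRN, a membrane glycoprotein, from -0.65 to 0.91. ASB1 went from -0.19 to 1.14. These 3 had the smallest p-values on the higher side.

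Several lists that were low without arsenite were lower still with it. Of 81 ribosomal protein genes 60 were called lower by the interaction and 0 higher, the median going from -2.18 to -3.06. The Pol III RNAs went from -1.70 to -3.33, RN7SL3 going from -3.08 to -5.79, and the snoRNA hosts from -1.16 to -2.19, with 16 of 23 called lower. The methyltransferases, at 1.17 and 1.37, had 3 called higher and 1 lower, and the giant ubiquitin ligases, at 1.26 and 1.33, had 0 called in either direction. NEAT1 had fold changes of 3.58 and 3.23 and was not called (interaction -0.35, edgeR adjusted p 0.607).

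**Figure D5:**
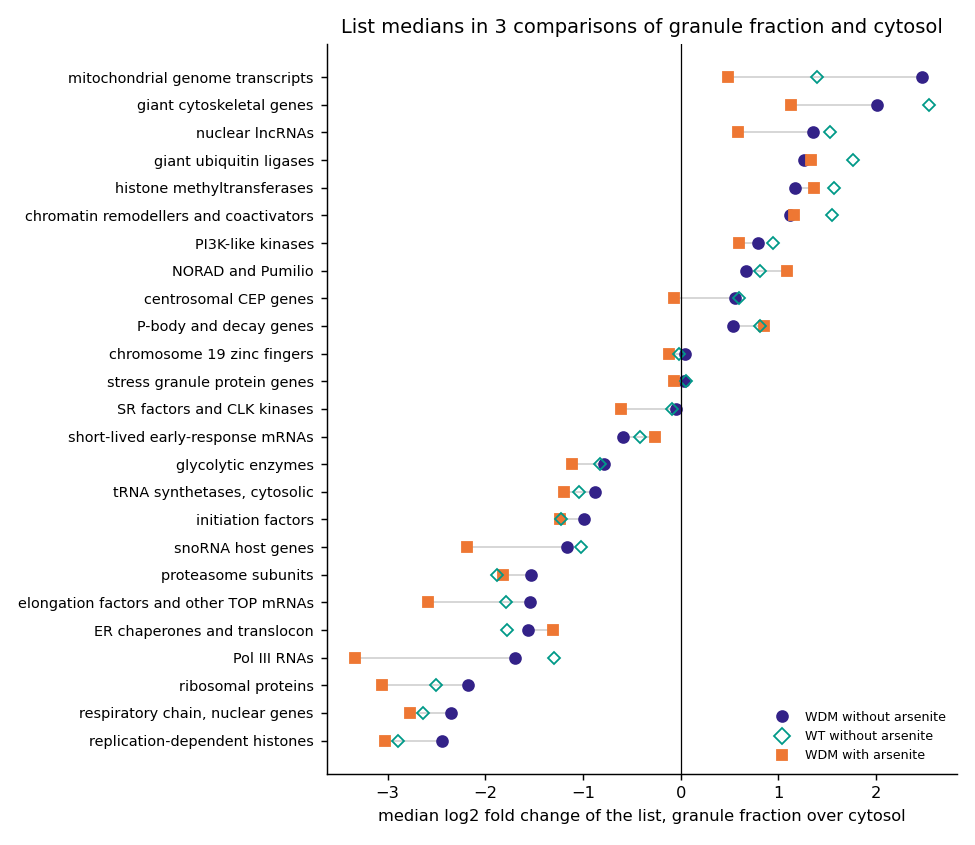
Median log2 fold change (granule fraction over cytosol, x axis) of each of 25 gene lists in WDM without arsenite (filled circles), WT without arsenite (open diamonds) and WDM with arsenite (squares). The mitochondrial medians differ most between WDM and WT without arsenite (2.47 and 1.40), and with arsenite the mitochondrial list lies at 0.49, the giant cytoskeletal genes at 1.13, the Pol III RNAs at -3.33 and the snoRNA hosts at -2.19.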

How the data were processed

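Ribosome-depleted total RNA libraries (stranded kit) of cytosol and granule fraction were compared in human Flp-In T-REx HEK293 lines. The authors deposited a table of whole-number counts per gene. The submitters' processing notes name Trimmomatic, STAR, Picard, featureCounts and the GRCh38 build, and versions, annotation and strand setting are not given in the sources used here. The table holds 60664 genes, of which 60463 were found in GENCODE release 44, used for lengths and classes.

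Counts of 24 tetracycline libraries were fitted with edgeR 4.0.16 (R 4.3.3; filterByExpr, minimum count 10; TMM; robust quasi-likelihood F-test; Benjamini-Hochberg over 18141 genes). The standard error is the fold change divided by the root of F. The test was checked on simulated counts in which few genes changed and all shared a common spread. That check does not cover data in which most genes change or a replicate stands apart. Named genes are TIA1 and TIAL1, the largest changes at 5 CPM (protein-coding: 20 CPM) without overlap of groups, the extreme and most abundant called members of each list, and the smallest interaction p-values; Y-linked genes and XIST were left out. SYNE2, DSP, IQGAP1, DBN1, KCNQ1OT1, MALAT1, RACK1 and C2orf42 were named after their values were seen. Members and lists were chosen with earlier results of these data known. Same-numbered fractions of WDM with arsenite deviated from their group means together (correlations 0.35, 0.563 and 0.306), a hint of pairing from the data, not the labels. Promoter windows come from RefSeq (GRCh38.p14). Alternatives were other scalings, no filter, DESeq2 1.42.0, a replicate block, fewer libraries and offsets for transcript length and gene span. A value of 3 counts is taken as the floor.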

Additional observations from a re-analysis of the deposited data

Results flagged for a closer look

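CALCB was picked out because its enrichment differed between the lines by the test of the difference itself, with an interaction of 2.61 (log2, WDM minus WT; edgeR adjusted p 1.65e-06). All 3 granule libraries lay above all 3 cytosol libraries in WDM and below them in WT.

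The difference between enrichment with and without arsenite in WDM was picked out for its number of genes, 4386 of 18141 with an edgeR adjusted p under 0.05. With DESeq2 the number was 4607.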

How the results depend on the processing

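The comparison of granule fraction and cytosol in WDM called 12899 genes, and with 1 library left out 12031 to 12731. With only the groups compared in the fit it called 11964 of 16009 genes tested. Leaving out 1 library gave 13053 to 13848 in WT, 12143 to 12731 in WDM with arsenite, 1 for the difference between lines, 3134 to 4561 for the difference with arsenite, and 11 to 12 lists with a median above 0. The difference between lines called 2 genes with library size alone, with TMM over protein-coding genes, with the replicate block, with no low-count filter and with DESeq2. The same-numbered fractions of WDM deviated together by 0.141, 0.212 and -0.0282, so the numbers were not taken to pair these samples, and the replicate block called 12976 genes. In WDM with arsenite, where same-numbered fractions did deviate together, the replicate block called 13228 genes against 13065, and 4808 against 4386 for the difference with arsenite. It changed 0 calls of the 17 genes named for that difference, some of them picked for small p-values in these data. Of 108 named genes called, 0 lost the call when 1 library was left out. Many were named for large fold changes or small p-values, so this says little of other genes. Without granule replicate 3 the mitochondrial transcripts had 9 called higher against 14. Without granule replicate 1 the early-response messages had 14 called lower against 19, and the stress granule protein genes 4 against 8. The ribosomal protein genes kept 79 called lower in both fits.

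Offsets for transcript length (planned), and for gene span or both (chosen after seeing the data), turned some signs, and the cause was not tested. With length, span and both, the PI3K-like kinases had medians of -0.065, -0.249 and -0.276, ATR -0.07, -0.25 and -0.28, and PRKDC -0.22, -0.25 and -0.43. With length and both, HUWE1 had -0.12 and -0.14, and LARS1 -0.72 and -0.36. With span and both, the early-response messages had medians of 0.102 and 0.158, NORAD 0.53 and 0.50, SNHG1 0.75 and 0.79, EIF4G3 -0.17 and -0.16, and ORC5 -0.41 and -0.30. Low depth limits RNAs near 3 counts in a library.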
